A study of Mus musculus with 25 samples.

Results

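The distal miR-379/miR-410 cluster is a group of miRNA hairpins in the imprinted Dlk1-Dio3 region on mouse chromosome 12. Its members were chosen by name and place, not by any measured value, though earlier results of these data were known. They are 35 of the 1193 hairpins in the deposited count table, lying within 38.9 kb. In order along the chromosome they are mmu-mir-379, mmu-mir-411, mmu-mir-299a, mmu-mir-380, mmu-mir-1197, mmu-mir-323, mmu-mir-758, mmu-mir-329, mmu-mir-494, mmu-mir-679, mmu-mir-1193, mmu-mir-666, mmu-mir-543, mmu-mir-495, mmu-mir-667, mmu-mir-376c, mmu-mir-654, mmu-mir-376b, mmu-mir-376a, mmu-mir-300, mmu-mir-381, mmu-mir-487b, mmu-mir-539, mmu-mir-382, mmu-mir-134, mmu-mir-668, mmu-mir-485, mmu-mir-154, mmu-mir-377, mmu-mir-541, mmu-mir-409, mmu-mir-412, mmu-mir-369, mmu-mir-410 and mmu-mir-3072. Of these, 34 had enough reads to be tested, among 425 hairpins tested in all, and mmu-mir-654 had 0 reads in each of the 25 libraries.

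The samples were brain hemispheres of male C57BL/6 mice, an inbred strain, at 2, 9, 15, 24 and 30 months of age. There were 5 libraries per age, each with a number of its own in the labels (no label says whether these number separate animals), and no genotype or treatment other than age was given. Small RNAs were sequenced from total RNA, and the table holds reads per hairpin with both arms counted together. The comparison asks how the level of each hairpin's miRNAs differs between young adult and old brains.

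The region is imprinted, and its noncoding RNAs, the miRNAs included, are made from the maternally inherited chromosome. The distal miRNAs are cut from long noncoding transcripts and are abundant in neurons, where the transcription factor Mef2 raises them with activity. Members such as miR-134, which restrains dendritic spine size by repressing Limk1, are known for their work in dendrites and synapses, and several members are edited from adenosine to inosine in brain, a base that sequencing reads as guanosine.

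The mature sequences below show how closely some members resemble each other, which bears on how reads could be divided between them. They are from RefSeq (GRCm38.p6), which held 66 mature arms for the 35 members, both arms for 31 of them. Capitals mark the seed, bases 2 to 8 from the 5′ end, the part that chiefly selects targets. The first 10 are arms whose seed is shared by another member: 5 seeds were shared, by 9 members, among 61 distinct seeds.
mmu-miR-379-3p: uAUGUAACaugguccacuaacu
mmu-miR-411-3p: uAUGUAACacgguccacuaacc
mmu-miR-379-5p: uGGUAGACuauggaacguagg
mmu-miR-1193-5p: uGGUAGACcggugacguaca
mmu-miR-758-5p: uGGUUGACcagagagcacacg
mmu-miR-1197-5p: cGGUUGACcaugguguguacg
mmu-miR-494-5p: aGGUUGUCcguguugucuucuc
mmu-miR-410-5p: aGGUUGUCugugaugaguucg
mmu-miR-376c-5p: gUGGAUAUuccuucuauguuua
mmu-miR-376b-5p: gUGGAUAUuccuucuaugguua

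The next arms belong to the members with the largest called differences between 2 and 30 months and to the most abundant members. miR-300-3p and miR-381-3p stand next to each other because they differ in few bases.
mmu-miR-300-3p: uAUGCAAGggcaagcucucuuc
mmu-miR-381-3p: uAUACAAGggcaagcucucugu
mmu-miR-300-5p: uUGAAGAGagguuauccuuugu
mmu-miR-381-5p: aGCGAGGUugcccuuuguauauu
mmu-miR-411-5p: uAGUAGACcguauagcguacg
mmu-miR-410-3p: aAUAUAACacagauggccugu
mmu-miR-541-5p: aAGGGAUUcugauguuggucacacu
mmu-miR-541-3p: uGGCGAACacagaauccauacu
mmu-miR-377-5p: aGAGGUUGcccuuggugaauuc
mmu-miR-377-3p: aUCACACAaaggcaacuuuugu
mmu-miR-495-5p: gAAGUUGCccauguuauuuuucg
mmu-miR-495-3p: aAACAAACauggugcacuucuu
mmu-miR-409-5p: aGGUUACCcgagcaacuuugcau
mmu-miR-409-3p: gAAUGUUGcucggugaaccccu
mmu-miR-487b-5p: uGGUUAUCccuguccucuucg
mmu-miR-539-5p: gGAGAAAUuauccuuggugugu
mmu-miR-3072-5p: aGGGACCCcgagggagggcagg
mmu-miR-3072-3p: uGCCCCCUccaggaagccuucu

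Counting positions from 1 at the 5′ end, miR-376c-5p and miR-376b-5p differed at 1 base (U19G), and miR-379-3p and miR-411-3p at 2 (U10C and U22C). The sequences used held no 3p arm for mir-376c, so that arm was not compared with miR-376b-3p. miR-300-3p and miR-381-3p differed at 3 bases (G4A, U21G and C22U), of which G4A lies in the seed, so these arms have different seeds. How reads with mismatches, edited bases or several matches were assigned is not given in the sources used here.

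Levels are CPM, reads of a hairpin per fixed total of reads, after scaling by TMM, edgeR's trimmed mean of M values. They are read numbers: ligation to adapters differs between sequences, so they do not rank the members by molecules. Averaged over all libraries, mmu-mir-410 had 12665 CPM, mmu-mir-411 10194, mmu-mir-381 5969, mmu-mir-541 5513 and mmu-mir-300 3742. These 5 hairpins held 81.8% of the cluster's reads. Of the 35 members, 7 had a mean over 1000 CPM, 25 over 100 and 31 over 10. At the low end, mmu-mir-1197 had 7.99, mmu-mir-1193 2.45 and mmu-mir-494 1.89 CPM.

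Library totals lay between 3.78 and 9.52 M (mega-reads) and their median was 5.61 M. Sequencing lane 3 held 5 libraries, 1 at each age, that did not overlap the others in 2 members. mmu-mir-300 lay between 4189 and 4692 CPM there against 3143 to 3941 in the other 20, and mmu-mir-376a between 385 and 417 against 318 to 371. These were the 2 of 34 members with no overlap, against 16 of 425 hairpins tested (3.76%), a share not far from that of the members. The tissue was checked against marker miRNAs. No marker listed was at 0, and the neuronal list (mir-124, mir-9 and mir-128 copies) summed to 69179.5 to 79741 CPM at 2 months and 62079.8 to 79792 at 30. In it, 2 of 8 fell, both mir-128 copies. All 3 oligodendrocyte markers rose, with sums of 2487 to 2913 and 3612 to 4554 CPM. Of 5 microglia and leukocyte markers 3 rose and 1 fell (sums 1242 to 1352 and 1158 to 1333), and of 5 choroid plexus and ciliated-cell markers 3 rose (sums 7583 to 9007 and 8994 to 10035). In the erythroid, endothelial, smooth muscle, sensory epithelium and pituitary lists 0 of 18 markers were called by edgeR (at an unadjusted p under 0.05, 1; by DESeq2, 0). The part of these shifts in the cluster's values was not tested, and in whole tissue fewer cells of a type and less RNA per cell cannot be told apart.

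Between 2 and 30 months, 15 of the 34 tested members fell (44.1%, against 17.9% of all hairpins tested) and 1 rose (2.94%, against 19.1%). The fallers were mmu-mir-379, mmu-mir-411, mmu-mir-1197, mmu-mir-323, mmu-mir-543, mmu-mir-495, mmu-mir-376c, mmu-mir-381, mmu-mir-487b, mmu-mir-539, mmu-mir-668, mmu-mir-377, mmu-mir-541, mmu-mir-409 and mmu-mir-369. The member that rose was mmu-mir-3072. Log2 fold changes ran from -0.84 to 0.42 with a median of -0.18, against 0.05 over all hairpins tested, and 26 members lay below 0. These calls are from edgeR's quasi-likelihood F test with Benjamini-Hochberg adjustment over all 425 hairpins, at 0.05, and rest on the spread between libraries, which may be in part technical. Scaling moved the balance over all hairpins: 76 fell and 81 rose here, but 105 and 47 when the Dlk1-Dio3 region was left out of the scaling and 91 and 50 with upper-quartile scaling, where 20 and 19 members fell and 0 rose.

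**Figure D1:**
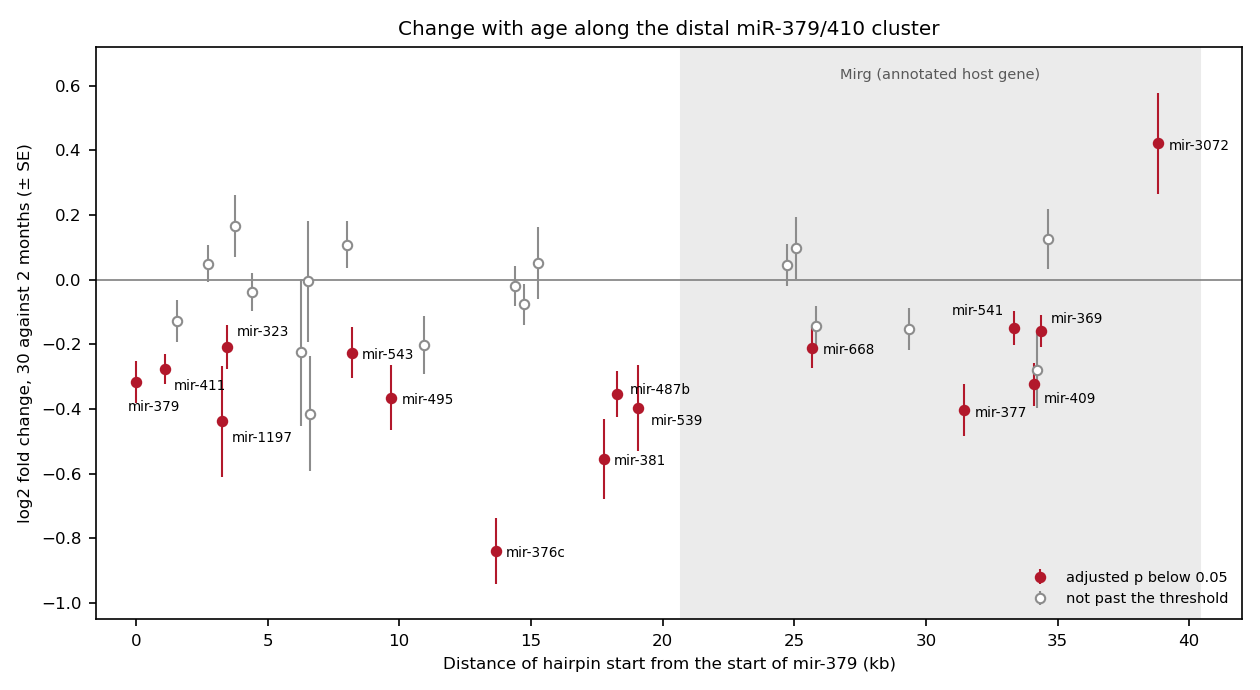
Log2 fold change of each tested member between 2 and 30 months (y axis, ± SE) against the distance of its hairpin from the start of mir-379 in kb (x axis), with filled points for an adjusted p below 0.05 and the annotated host gene Mirg shaded. Called members lie along the whole cluster, with mir-376c lowest at -0.84 and mir-3072, the last hairpin, highest at 0.42.

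In 9 of the 34 members every 30-month library lay below every 2-month library (26.5%, against 11.1% of all hairpins tested), and in 0 every 30-month library lay above (0.0%, against 10.4%). The 9 were mir-379, mir-411, mir-495, mir-376c, mir-381, mir-487b, mir-377, mir-409 and mir-369. Among the 16 called members these 9 were also those whose call held under all 11 other settings and in all 25 refits that left out 1 library, with each hairpin counted by itself.

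**Figure D2:**
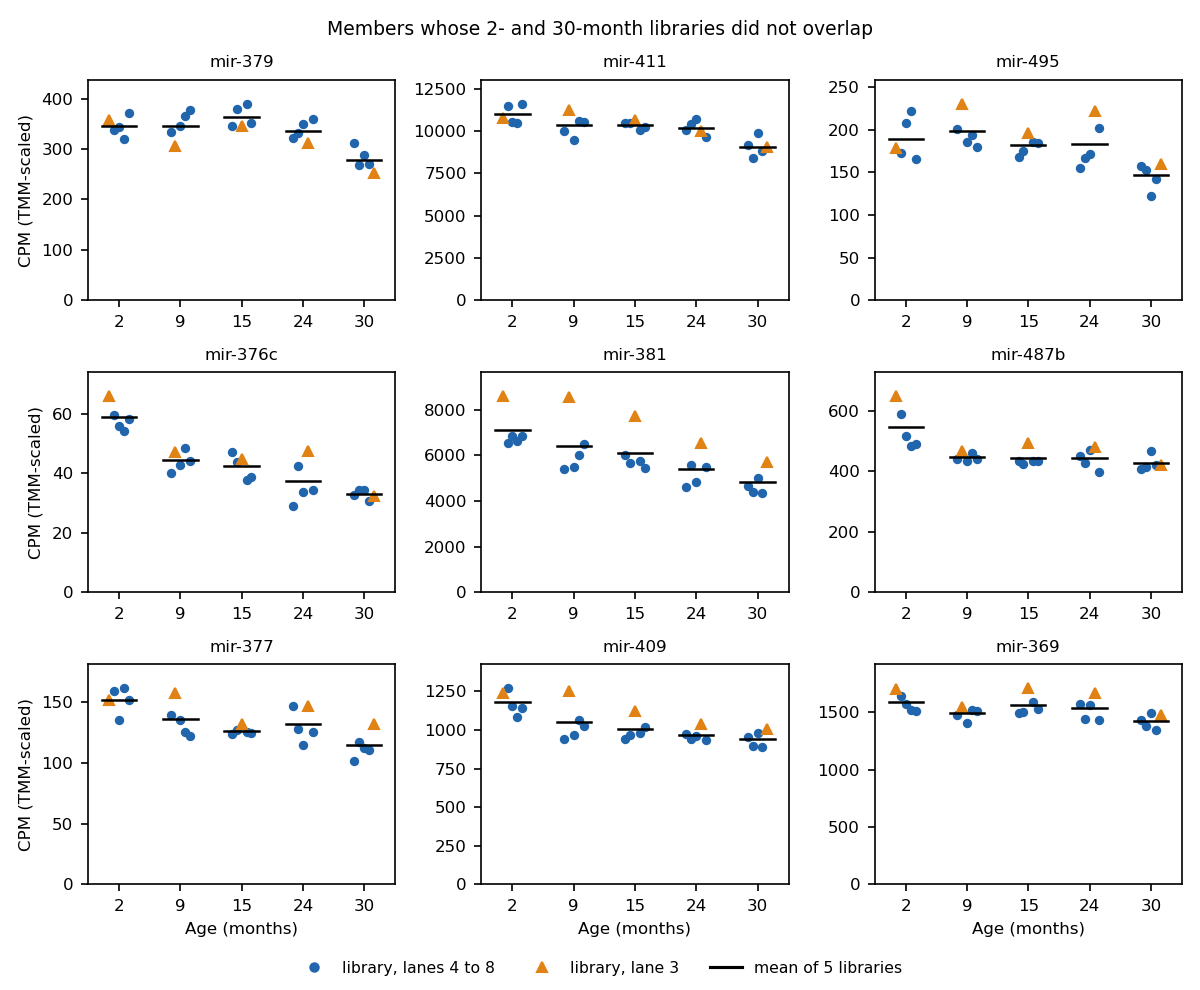
CPM (y axis, linear from 0) by age in months (x axis) for the 9 members whose 2- and 30-month libraries did not overlap; each point is 1 library, triangles are lane 3, and bars are means of 5 libraries. mir-376c drops from a mean of 58.8 to 32.9 CPM, and lane 3 is the highest library of mir-381 at every age.

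The largest fall was in mmu-mir-376c (chr12:109722718-109722803), one of 3 nearby mir-376 hairpins whose miRNAs are edited in brain. Its 2-month libraries had 66.1, 59.6, 56.0, 54.1 and 58.3 CPM and its 30-month libraries 32.6, 34.3, 34.3, 30.8 and 32.3 CPM. The lowest young library was well above the highest old one. The log2 fold change was -0.84 ± 0.10 (SE, n = 5 per age, edgeR adjusted p = 1.71e-06). The neighbouring mmu-mir-376b, with 593 CPM on average, and mmu-mir-376a, with 359.9, had fold changes of -0.02 ± 0.06 and -0.08 ± 0.06 that did not pass the test. When reads of mir-376c and mir-376b were summed, a step chosen after seeing the data, the call was lost (log2 fold change -0.09 ± 0.06, edgeR adjusted p = 0.281), as with all 3 summed (log2 fold change -0.06 ± 0.05, edgeR adjusted p = 0.322). mir-376c held few of the summed reads, so both sums mainly follow the other hairpins and cannot decide whether mir-376c fell. Within the pair, mir-376c held 8.90 ± 0.790% of the reads at 2 months and 5.24 ± 0.270% at 30 (SD, n = 5), and these ranges did not overlap.

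mmu-mir-381 (chr12:109726822-109726896), the third most abundant member and another with an edited miRNA, had 8612, 6561, 6839, 6637 and 6835 CPM at 2 months and 4654, 4407, 5028, 4354 and 5724 CPM at 30 months. Lane 3 gave the highest value at each of these ages, and all old libraries lay below all young ones. The level fell, with a log2 fold change of -0.55 ± 0.12 (SE, n = 5 per age, edgeR adjusted p = 0.00112). With lane as a covariate the change was -0.54 and without lane 3 it was -0.57. Its close relative mmu-mir-300 had 4189, 3624, 3351, 3411 and 3653 CPM at 2 months and 3479, 3467, 3941, 3349 and 4662 CPM at 30 months. These libraries overlapped, with lane 3 highest at both ages. The log2 fold change of mir-300 was 0.05 ± 0.11 (edgeR adjusted p = 0.722), and its sign turned with upper-quartile scaling, with the region left out of the scaling, without lane 3, and without 2-month replicate 3 or 30-month replicate 5 alone.

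The balance of reads within the pair differed between ages. mir-300 held 34.0 ± 1.23% of the pair's reads at 2 months, 36.3 ± 1.04% at 9, 38.2 ± 0.728% at 15, 41.8 ± 2.69% at 24 and 43.8 ± 0.775% at 30 months (SD, n = 5 per age). The highest young library, at 35.6%, was below the lowest old one, at 42.8%; this pair was picked after its values were seen. Summed, the pair still fell (log2 fold change -0.35 ± 0.11, edgeR adjusted p = 0.0163). Whether edited reads of 1 hairpin were counted for the other was not tested.

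**Figure D3:**
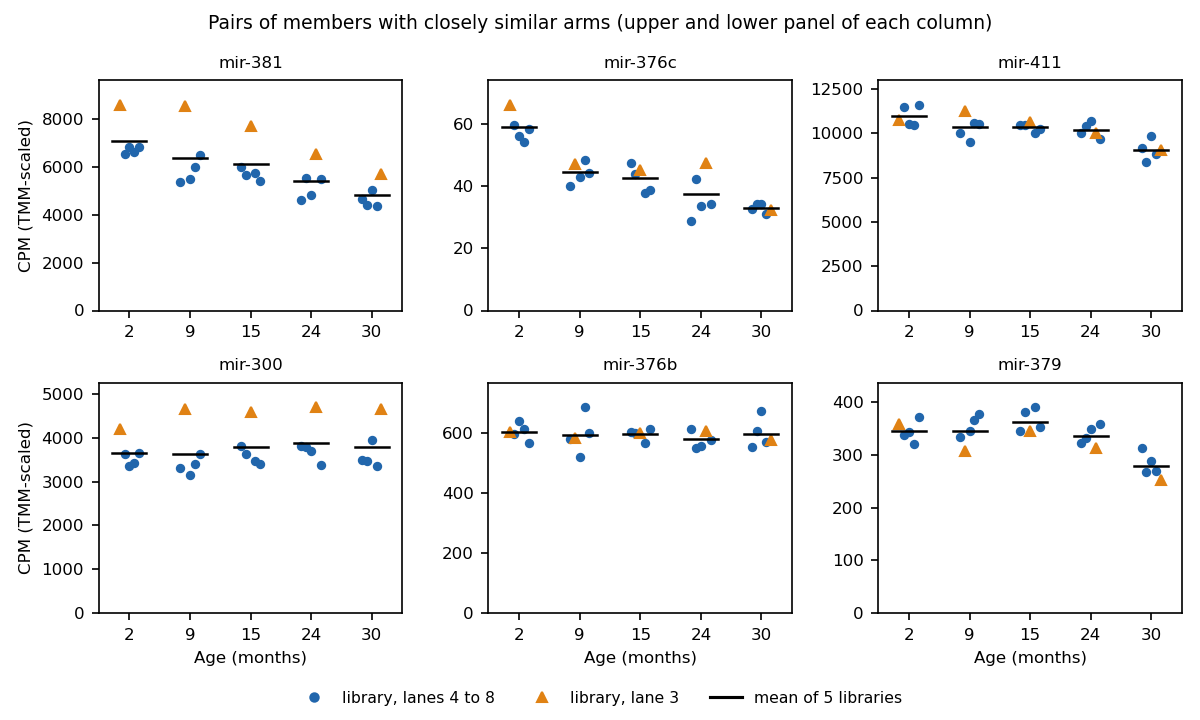
CPM (y axis, linear from 0) by age in months (x axis) for pairs of members with closely similar arms, 1 pair per column; points are libraries, triangles lane 3, bars means of 5 libraries. mir-381 and mir-376c decline from 2 to 30 months while their relatives mir-300 and mir-376b overlap between those ages; mir-411 and mir-379 are both lower at 30 months.

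At the start of the cluster, mmu-mir-379 (chr12:109709060-109709125) and mmu-mir-411 (chr12:109710175-109710256) fell together. They are listed as edited, and their 3p arms share a seed. mir-379, which gives the cluster its name, had 358, 337, 343, 320.3 and 371 CPM at 2 months and 312, 267, 288, 269 and 252.4 CPM at 30 months. Its old libraries were all lower, by a narrow gap at the closest values. The log2 fold change was -0.32 ± 0.06 (SE, n = 5 per age, edgeR adjusted p = 4.46e-04). mir-411, with 30.6 times as many reads on average, had 10779, 11497, 10508, 10497 and 11622 CPM at 2 months and 9185, 8410.2, 9874, 8810.5 and 9040.2 CPM at 30 months. Again no old library reached the young range. Its log2 fold change was -0.28 ± 0.05 (edgeR adjusted p = 6.66e-05), and mir-379 held 3.06 ± 0.1501% of the pair's reads at 2 months and 2.98 ± 0.221% at 30. Their sum fell as well (log2 fold change -0.29 ± 0.05, edgeR adjusted p = 2.65e-05). As mir-411 held nearly all of these reads, the sum mainly repeats its call and says little on mir-379.

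mmu-mir-495 (chr12:109718754-109718816), listed among the dendrite and synapse miRNAs, had 178, 173, 208, 222.2 and 166 CPM at 2 months and 157, 153, 123, 142 and 159.8 CPM at 30 months. The ranges did not overlap but nearly met. Its log2 fold change was -0.37 ± 0.10 (SE, n = 5 per age, edgeR adjusted p = 0.00623). mmu-mir-487b (chr12:109727333-109727414) had 649, 588, 516, 483 and 489.7 CPM at 2 months and 406, 415, 468, 422 and 421 CPM at 30 months. The young libraries were spread widely and the old ones narrowly, below them. The log2 fold change was -0.35 ± 0.07 (edgeR adjusted p = 4.09e-04).

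Inside the host gene Mirg, mmu-mir-377 (chr12:109740510-109740577) had 151, 159, 135, 161 and 152 CPM at 2 months and 101, 117, 112, 110.4 and 132 CPM at 30 months. The old library of lane 3 was the one closest to the young range. The log2 fold change was -0.40 ± 0.08 (SE, n = 5 per age, edgeR adjusted p = 3.72e-04). mmu-mir-409 (chr12:109743158-109743236) had 1242, 1273, 1159, 1085 and 1142 CPM at 2 months and 952, 895, 978, 887 and 1005 CPM at 30 months, again with no overlap. Its log2 fold change was -0.32 ± 0.07 (edgeR adjusted p = 5.25e-04). mmu-mir-369 (chr12:109743418-109743496), one of 2 listed members whose miRNAs repress N-cadherin in the developing cortex, averaged 1589.6 ± 81.8 CPM in young and 1424 ± 61.8 CPM in old libraries (SD, n = 5) and fell, its log2 fold change being -0.16 ± 0.05 (edgeR adjusted p = 0.0143).

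The other 6 fallers overlapped between the ages and lost their call under some setting. mmu-mir-539 had 14.1, 14.2, 17.5, 13.9 and 14.6 CPM at 2 months and 15.0, 12.5, 9.65, 8.49 and 11.01 CPM at 30 months, so that 1 old library exceeded most young ones. Its change of -0.40 ± 0.13 (edgeR adjusted p = 0.0217) was not called without 2-month replicate 3 or 30-month replicate 4, nor when only these ages were fitted. mmu-mir-541, the fourth most abundant member, had 6106, 6499, 5939, 5839 and 5686 CPM at 2 months and 4931, 5316, 5740.5, 5219.6 and 5923 CPM at 30 months, with overlap in the upper old libraries. Its log2 fold change was -0.15 ± 0.05 (edgeR adjusted p = 0.0275), a call lost only with no filter on low counts among the settings run. mmu-mir-543, the other listed N-cadherin member, had -0.23 ± 0.08 (edgeR adjusted p = 0.0271), a call lost without 30-month replicate 4 and with no filter. mmu-mir-323 (-0.21 ± 0.07) and mmu-mir-668 (-0.21 ± 0.06) lost the call when only 2 and 30 months were fitted. mmu-mir-1197, at 11.5 ± 3.03 and 8.41 ± 1.44 CPM, had -0.44 ± 0.17 (edgeR adjusted p = 0.0466) and lost the call without any of 2-month replicates 1 and 2, 24-month replicate 4, or 30-month replicates 3 and 4, without lane 3, with no filter and with these ages alone.

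The single riser, mmu-mir-3072 (chr12:109747878-109747960), is the last and one of the rarest hairpins. It had 5.37, 7.30, 10.8, 11.4 and 9.05 CPM at 2 months and 13.1, 11.7, 11.9, 11.4 and 11.01 CPM at 30 months, which overlapped, the young libraries being widely spread. Its change of 0.42 ± 0.16 (SE, n = 5 per age, edgeR adjusted p = 0.0377) was called again in 3 of 25 refits that left out a library (without 2-month replicate 3 or 4, or 24-month replicate 4). It was lost under 9 of 11 other settings, all but the 10 CPM filter and lane as a covariate.

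The most abundant member did not pass the test. mmu-mir-410 (chr12:109743715-109743795), the end of the cluster by name, had 11426, 12144, 10917, 11469.6 and 12229.6 CPM at 2 months and 12491, 11539.6, 12402, 11797 and 15257 CPM at 30 months. The lane 3 library was by far the highest old one. Of the others, those at 12491 and 12402 CPM lay slightly above the young range and those at 11539.6 and 11797 CPM within it. Its log2 fold change was 0.13 ± 0.09 (edgeR adjusted p = 0.307), and without lane 3 it was 0.02.

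By known role, 3 of 6 dendrite and synapse members fell (mir-379, mir-381 and mir-495). The others were mmu-mir-134 with 0.10 ± 0.10, mmu-mir-485, a regulator of presynaptic SV2A, with -0.14 ± 0.06, and mmu-mir-329 with -0.04 ± 0.06. Of 7 members listed as edited, 4 fell (mir-376c, mir-379, mir-381 and mir-411), and mir-376a, mir-376b and mmu-mir-299a (-0.13 ± 0.06) did not pass. Both listed N-cadherin members fell. That list was limited to cluster members, so mir-496a (-0.05 ± 0.09), a distal hairpin outside them, was not in it. The shares to read these counts against are 44.1% of all tested members and 17.9% of all hairpins tested that fell. The medians of these lists were -0.23, -0.28 and -0.19, beside 0.05 over all hairpins tested.

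The remaining members that did not pass for 30 against 2 months had positive fold changes in mmu-mir-758 (0.17 ± 0.10) and mmu-mir-666 (0.11 ± 0.07), and in mmu-mir-380 (0.05 ± 0.06) and mmu-mir-382 (0.05 ± 0.06), whose sign turned with upper-quartile scaling and with the region left out of the scaling (for mir-382 also in 4 refits, without 2-month replicates 2 and 3 and 30-month replicates 2 and 5). They were below 0 in mmu-mir-667 (-0.20 ± 0.09), mmu-mir-154 (-0.15 ± 0.07), mmu-mir-412 (-0.28 ± 0.12), mmu-mir-1193 (-0.41 ± 0.18), mmu-mir-494 (-0.22 ± 0.23) and mmu-mir-679 (-0.01 ± 0.19), the last turning sign with no filter and in 3 refits (without 2-month replicate 4 and 30-month replicates 3 and 4). mir-485, mir-154, mir-667, mir-412 and mir-299a were called lower under 7, 6, 6, 4 and 1 of the 11 other settings, and in 21, 12, 13, 3 and 11 of the 25 refits that left out 1 library.

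The middle ages showed when levels differed. The slope of the age means, in log2 units per 12 months, was negative past the threshold in 10 members (29.4%, against 16.2% of all hairpins tested) and positive in 2 (5.88%, against 20.2%). With RLE size factors 18 slopes were negative, as with the region left out of the scaling, and with opposite-strand hairpins summed 17. In that order, slope calls of either sign over all hairpins went from 155 to 166, 161 and 159. All hairpins lower at 30 than at 2 months went from 76 to 89, 105 and 88, so these settings moved more than the members. Of members whose slope was not called here, mir-369 was called with a negative slope in 24 of 25 refits that left out 1 library, mir-485 in 20, mir-668 in 18, mir-323 in 17, mir-299a and mir-667 in 15 each, mir-543 in 10, mir-154 in 9 and mir-329 in 1. The steepest were mir-376c at -0.33 ± 0.04 and mir-381 at -0.23 ± 0.05. Next came mir-495 (-0.14 ± 0.04), mir-377 (-0.14 ± 0.03), mir-539 (-0.14 ± 0.05), mir-409 (-0.13 ± 0.03), mir-379 (-0.12 ± 0.02), mir-487b (-0.12 ± 0.03), mir-411 (-0.10 ± 0.02) and mir-541 (-0.06 ± 0.02). The slope of mir-539 was lost without 2-month replicate 3, 30-month replicate 4 or lane 3, and those of mir-539 and mir-541 with no filter. The positive slopes were in mir-758, from 284 ± 44.0 CPM at 2 months to 361 ± 30.2 at 24 and 318 ± 32.3 at 30 (SD, n = 5), and mir-666, from 325.005 ± 22.6 to 350.3 ± 24.4. They were 0.12 ± 0.04 and 0.08 ± 0.03. Both were lost without lane 3, mir-758 also without 2-month replicate 1 or 30-month replicate 2, and mir-666 in 7 refits, those without 2-month replicates 2 and 3, 9-month replicate 3, 24-month replicate 1 and 30-month replicates 2, 3 and 5. The slope of mir-666 was also lost with upper-quartile scaling, with the region left out of the scaling and with DESeq2.

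Any difference among the 5 ages was called in 15 members (44.1%, against 32.7%): the slope's members without mir-539, and mir-1197, mir-323, mir-668 and mir-412.

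From 2 to 9 months 7 members fell and 0 rose (20.6% changed, against 7.76%). mir-1197 went from 11.5 ± 3.03 to 6.15 ± 1.43 CPM (-0.88 ± 0.18), mir-323 from 209 ± 24.3 to 163 ± 5.59 (-0.36 ± 0.07) and mir-487b from 545 ± 71.4 to 448 ± 14.4 (-0.28 ± 0.07). These calls held in every refit and setting run. mir-376c (-0.40 ± 0.10) lost its call with no filter. mir-412 (-0.47 ± 0.12), mir-1193 (-0.75 ± 0.19) and mir-668 (-0.21 ± 0.06) lost the call without lane 3, with no filter, and without 2-month replicate 1 or 9-month replicate 2. mir-412 also lost it without 2-month replicate 2, mir-1193 without 2-month replicates 4 and 5 and 9-month replicates 1 and 3, and mir-668 without 2-month replicates 2 and 5, 9-month replicate 1 and 24-month replicate 4. DESeq2 did not call mir-1193, and upper-quartile scaling did not call mir-668. The edgeR adjusted p-values of the 7 ran from 0.0014 for mir-323 to 0.0488 for mir-668.

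Between 9 and 15 months edgeR called 0 members (0.0%, against 0.0%), with 1 at an unadjusted p under 0.05 and 0 by DESeq2. Between 15 and 24 months it called 0 members (0.0%, against 0.235%), with 2 at an unadjusted p under 0.05 and 0 by DESeq2. From 24 to 30 months 3 members fell and 0 rose (8.82%, against 8.71%), a share near that of all hairpins. mir-379 went from 335 ± 19.0 to 278 ± 22.9 CPM (-0.27 ± 0.06), mir-411 from 10178 ± 413 to 9064 ± 539 (-0.17 ± 0.05) and mir-495 from 184 ± 27.5 to 147 ± 15.2 (-0.32 ± 0.10). Their edgeR adjusted p-values were 0.0117, 0.0261 and 0.0461. mir-411 held its call in every refit and setting run, mir-379 lost it without 24-month replicate 5, and mir-495 without 24-month replicates 4 and 5, 30-month replicates 2, 3 and 4, lane 3 or the filter. Adjacent intervals share libraries, and whether 2 intervals differ was not tested.

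Age means of other named members filled in these courses. mir-381 had 6389.7 ± 1288, 6117 ± 921 and 5409.98 ± 751 CPM at 9, 15 and 24 months, and mir-376c 44.5 ± 3.35, 42.5 ± 4.13 and 37.3 ± 7.47, each between its 2- and 30-month means. mir-409 had 1050.2 ± 123, 1006 ± 73.0 and 969 ± 41.5, and mir-377 136 ± 13.9, 126 ± 3.22 and 132 ± 14.2. mir-541 had 5442 ± 322.99, 5422 ± 232 and 5259 ± 260.1, near its 30-month mean. In others the middle ages lay above the 30-month mean: mir-379 had 346 ± 27.5 and 362 ± 21.2 at 9 and 15 months, mir-411 10366 ± 661 and 10384 ± 241, and mir-495 198 ± 19.8 and 182 ± 10.9. mir-539 had 15.1 ± 2.12, 13.4 ± 1.88 and 14.3 ± 1.56 at 9, 15 and 24 months. mir-487b stayed at 443 ± 27.8 and 445 ± 33.7 at 15 and 24 months, near its 9-month mean. mir-1197 was at 6.42 ± 1.13 and 7.49 ± 0.847, mir-323 at 164 ± 8.64 and 169 ± 11.9, and mir-412 at 25.8 ± 1.93 and 28.9 ± 2.57 at those ages, all 3 with a 30-month mean above the 9-month one. mir-668 was at 535 ± 27.9 and 561 ± 29.4, and mir-1193 at 2.10 ± 0.318 and 2.47 ± 0.437. Among members with higher means in old brains, mir-666 had 296 ± 21.0, 308 ± 21.3 and 349 ± 36.8 and mir-758 285 ± 29.9 and 298 ± 20.8 at the earlier ages. mir-3072 had 10.7 ± 1.26, 9.93 ± 1.55 and 10.4 ± 1.67 CPM. mir-300 had 3628 ± 600.1, 3779 ± 477 and 3875 ± 490.2 CPM, within 1 SD of its 2-month mean of 3646 ± 331. mir-410 had 12253 ± 2045, 12993 ± 1136 and 13746 ± 1205 CPM, and its highest mean was at 24 months. Of the 34 tested members, 20 had their highest mean at 2 months and 13 their lowest at 30 months.

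**Figure D4:**
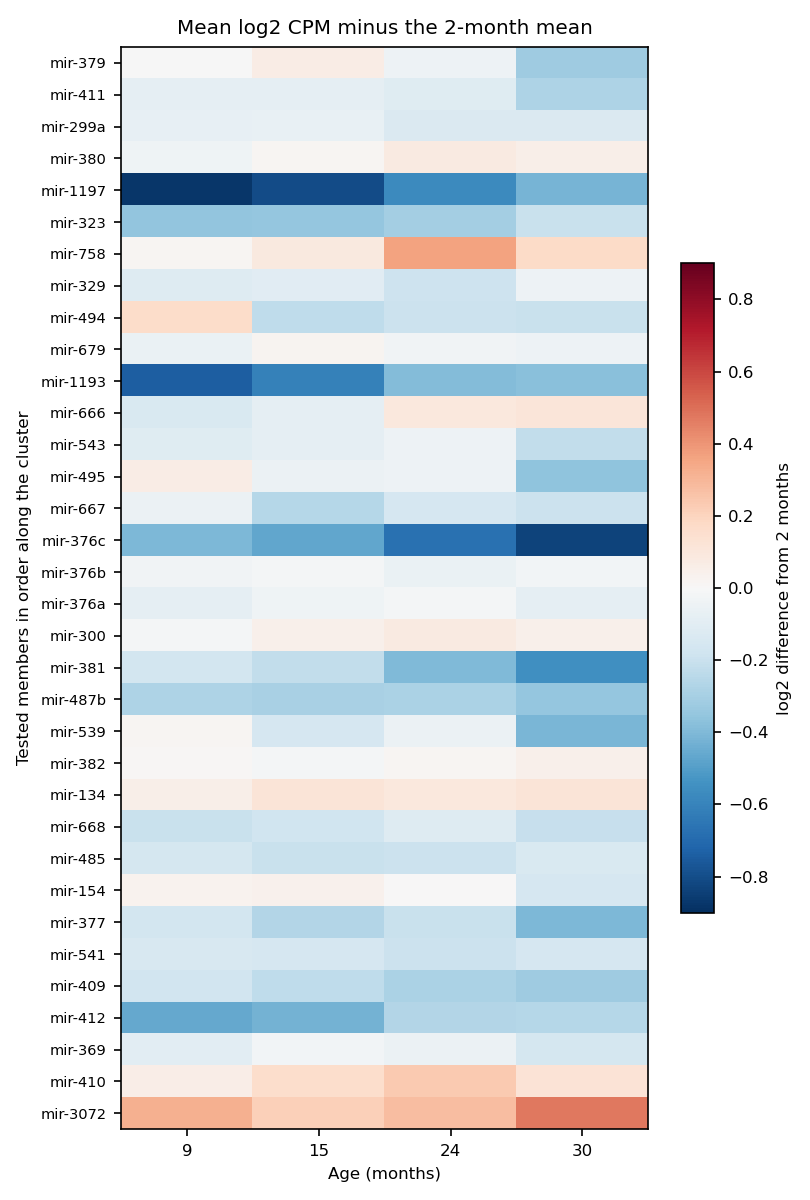
Mean log2 CPM at 9, 15, 24 and 30 months (columns) minus the 2-month mean for the 34 tested members in chromosomal order (lines); blue is lower and red higher than at 2 months. mir-1197, mir-1193 and mir-412 are lowest at 9 months, while mir-376c and mir-381 grow bluer up to 30 months.

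As a share of all reads, the cluster made up 4.85 ± 0.0734% at 2 months, 4.65 ± 0.413% at 9, 4.70 ± 0.269% at 15, 4.77 ± 0.251% at 24 and 4.33 ± 0.328% at 30 months (SD, n = 5 per age). The 2-month libraries lay between 4.77% and 4.97% and the 30-month ones between 4.003% and 4.86%, overlapping through the old library of lane 3. The mean dropped by 10.7%. Without lane 3 the means were 4.82% at 2 and 4.20% at 30 months (n = 4 per age), a drop by 13.0%, and the old range of 4.003% to 4.34% lay below the young range of 4.77% to 4.87%. These values are descriptions with no test.

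**Figure D5:**
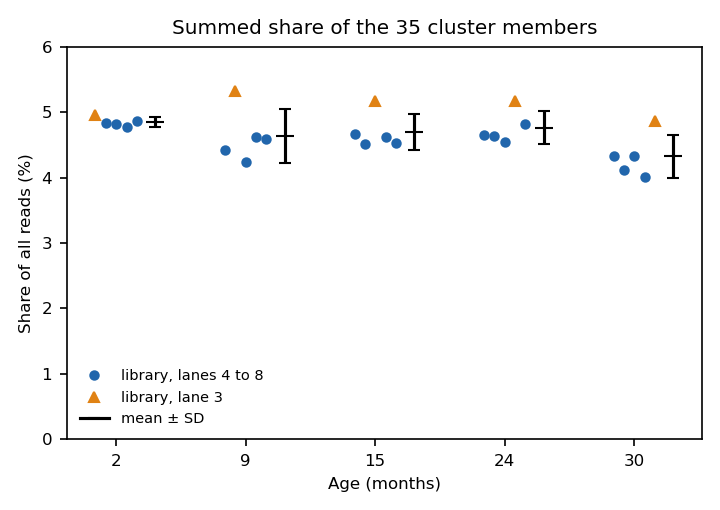
Share of all reads held by the 35 members (y axis, percent) by age in months (x axis); points are libraries, triangles lane 3, and bars mean ± SD of 5 libraries. The mean is 4.85% at 2 and 4.33% at 30 months, and lane 3 is highest at every age.

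The cluster runs from chr12:109709060-109747960 on the forward strand (GRCm38, GENCODE M21). The first 23 hairpins lie between the annotated genes Rian and Mirg, and overlap with genes other than the main ones of the region was not looked up. The last 12 lie within the long noncoding RNA gene Mirg (chr12:109729764-109749460), 9 overlapping an exon and 3 in introns. Of the 22 tested members before Mirg 10 fell and 0 rose, with a median of -0.22, and of the 12 within it 5 fell and 1 rose, with a median of -0.15, beside 17.9% lower and 19.1% higher among all hairpins tested. Neither position along the cluster (Pearson r = 0.15, Spearman rho = 0.09 across 34 members) nor mean level (r = 0.14, rho = 0.22) ordered the fold changes closely. The fold changes of neighbouring hairpins were as little related (r = 0.03, rho = -0.02 over 33 neighbour pairs). Members share libraries and depth, so these are descriptions.

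Hairpins with a shared seed did not share their call in every group. mir-379 and mir-411 both fell. mir-379-5p's seed partner mir-1193, at a mean of only 2.45 CPM, was also below 0 (-0.41 ± 0.18) but was not called at 30 months. Of the other seed pairs, mir-1197 fell and mir-758 did not pass, mir-376c fell and mir-376b did not pass, and neither mir-494 nor mir-410 passed. Both arms of a hairpin were counted together, so the arm with the shared seed was not measured by itself. These calls therefore cannot show whether shared seeds go with shared changes, and whether partners differ was not tested.

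With age means removed, the 31 members of at least 10 CPM varied together weakly from library to library. The median Pearson r over their 465 pairs was 0.14. It was above 0 in 64.7% of these pairs, against 50.8% outside the region, and the median of mir-758 with the other members was -0.24. The median r was 0.20 over 120 pairs of 16 other listed hairpins of the region at that level, and 0.01 among 277 hairpins outside the region. These 16 were proximal hairpins and the distal mir-496a, and included mir-337 and mir-3544, which may hold the same reads. They also included mir-3071 and mir-136, whose mean levels were nearly equal (7340 and 7343 CPM). With lane means removed too the medians were 0.07, 0.10 and 0.00465, so that of the members was below that of the 16 others. For single pairs only age means were removed, not lane means. The highest value was between mir-300 and mir-381 (r = 0.90), which were 0.37 and 0.40 higher in log2 CPM in lane 3 than in the other lanes. mir-487b and mir-485 had r = 0.87, and mir-369 and mir-487b had r = 0.83. All pairs share the 25 libraries and their lanes.

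The hairpins whose log2 CPM over the 25 libraries was most like the 3 members of smallest p were sought among those of at least 10 CPM. For mir-376c they were mir-337 (r = 0.86), mir-1983 (0.86) and mir-322 (0.84). For mir-411 they were mir-337 (0.80), mir-3544 (0.76) and mir-582 (0.74), and for mir-377 mir-148a (0.83), mir-186 (0.77) and mir-3544 (0.75). Age means were not removed here and the 3 members were picked for their age change, so r holds the age trend. Each match named was itself called lower at 30 than at 2 months. mir-337 and mir-3544 belong to the proximal part of the same imprinted region and lie on opposite strands of 1 locus, so they may hold the same reads.

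The rest of the region showed where the distal cluster stood. Of 16 proximal hairpins tested, 4 fell and 2 rose between 2 and 30 months, with a median of -0.06. Beside this, 17.9% of all hairpins tested fell and 19.1% rose. The 4 include mir-337 and mir-3544 of 1 locus, which may not be separate falls. The fallers were mir-493 (-0.51 ± 0.13), mir-337 (-0.39 ± 0.05), mir-3544 (-0.38 ± 0.05) and mir-673 (-0.27 ± 0.06), and the risers mir-434 (0.22 ± 0.08) and mir-770 (0.18 ± 0.06). mir-127, the most abundant of the region at 148457 CPM, had -0.10 ± 0.05 and did not pass. The 2 other distal hairpins tested, mir-496a (-0.05 ± 0.09) and mir-1247 (-0.17 ± 0.25), did not pass. Whether the distal and proximal lists differ was not tested.

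Sequencing lane was crossed with age: 4 lanes held both a 2- and a 30-month library. Of the 16 called members, 14 were on the same side in all 4. The libraries compared are among those that gave the calls, so this is no separate support for them. In lanes 3, 5, 6 and 7 the log2 difference of CPM, old minus young with 1 library each, was -1.03, -0.78, -0.66 and -0.76 for mir-376c and -0.59, -0.56, -0.59 and -0.44 for mir-381. The exceptions were mir-1197 and mir-541. With lane as a covariate all 16 calls were made again.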

How the data were processed

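Small RNA was sequenced from 25 brain hemisphere libraries, 5 per age, made with the TruSeq small RNA kit per the labels' protocols. The authors deposited whole-number read counts per miRNA hairpin for 1193 hairpins. Per the submitters' processing notes, the tools included SAMtools 1.3.1-9, Trimmomatic 0.36 and bcl2fastq 1.8.4. What aligner and genome build were used, and how strand and multiply matching reads were handled, is not given in the sources used here, so reads of similar arms or opposite-strand hairpins may be divided in unknown ways.

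Counts were analysed with edgeR 4.0.16 in R 4.3.3: filterByExpr kept 425 hairpins and set aside 768, libraries of 3.78 to 9.52 M reads were scaled by TMM, and all 25 entered 1 quasi-likelihood model with age means. F test p-values received Benjamini-Hochberg adjustment across the 425 and were called below 0.05. SE, the standard error, is the log2 fold change over the square root of F. Log2 levels had 0.5 reads added. Ages came from the labels; replicate numbers follow deposition order and pair no libraries. Errors reflect the spread between libraries, which no label ties to separate animals. Reads carry no molecular identifiers, so copies made by PCR cannot be told from molecules.

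On counts simulated for 30 against 2 months over 414 hairpins, 40.3%, 73.4% and 93.7% of log2 changes of 0.3, 0.5 and 1 were called, and 1.82% of unchanged hairpins.

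Members and lists were chosen with earlier results of these data known. Values in every library of 2 and 30 months are given for up to 10 members called between these ages with a mean of at least 10 CPM, by size of change, for the 5 most abundant, and for mir-379 and mir-410. Alternatives covered scaling, DESeq2 1.42.0, filters, sequencing lane (named in the column names of the deposited table), opposite-strand hairpins summed, the libraries entering the fit, and similar neighbours summed, the last chosen after seeing the data. Positions are from GENCODE M21 (GRCm38), mature sequences from RefSeq, and plots were drawn with matplotlib 3.10.9.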

Additional observations from a re-analysis of the deposited data

Results flagged for a closer look

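Of 175 sets of 5 libraries (the members and the cluster's share at each age), 13 held a library whose gap to the nearest other, divided by the range of the 5, exceeded 0.71, the 95% critical value; chance alone marks about 1 in 20. In 9 of the 13 the library was from lane 3. At 15 months that lane's library was highest for mir-299a (55.1 CPM, others 48.3 to 49.9), mir-666 (345 CPM, others 294 to 304), mir-543 (126 CPM, others 101 to 106), mir-381 (7723 CPM, others 5437 to 6014), mir-487b (492 CPM, others 424 to 434) and the cluster's share of reads (5.17%, others 4.51% to 4.66%). In the same lane mir-381 was highest at 2 months (8612 CPM, others 6561 to 6839) and mir-410 at 9 months (15799 CPM, others 10514 to 11810.4) and 30 months (15257 CPM, others 11539.6 to 12491). In the other lanes mir-487b was high in 1 library at 30 months (468 CPM, others 406 to 422) and mir-539 in 1 at 2 months (17.5 CPM, others 13.9 to 14.6). mir-329 was low in 1 library at 24 months (259.7 CPM, others 286 to 297) and mir-679 in 1 at 2 months (8.38 CPM, others 10.96 to 11.6). The part of lane in these values was not tested.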

How the results depend on the processing

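Members that fell between 2 and 30 months numbered 15, between 11 and 20 over 11 other settings and from 12 to 19 when 1 library was left out. The single rise became 0 with RLE size factors, upper-quartile scaling, library totals, scaling without the Dlk1-Dio3 region, DESeq2, no low-count filter, opposite-strand hairpins summed, without lane 3 and with only 2 and 30 months fitted, and was 0 to 1 when 1 library was left out. Slope calls numbered 12 and became 20 with RLE size factors, 19 with scaling without the region and 19 with opposite-strand hairpins summed, and 11 to 20 when 1 library was left out. Over all hairpins slope calls numbered 155, and 166, 161 and 159 at those settings. Calls for any difference, 15, became 23 with scaling without the region and ranged from 13 to 21 with 1 library left out. Calls between adjacent ages, 10, became 5 with no low-count filter and ranged from 7 to 12 with 1 library left out. The cluster's mean share of reads differed by -10.7% at 30 months with all reads in the denominator and by -12.3% with reads outside the region. The cause was not tested in these cases. No member called between 2 and 30 months changed sign there under the settings run. Across scalings the median log2 change of all hairpins lay between -0.04 and 0.05. The rarest tested members, mir-494 and mir-1193, had means of 11.04 and 14.24 reads per library; the part of depth in which members were called was not tested. No paired analysis by replicate number was made, because the numbers only follow the order of deposition; lane was used as a covariate instead, and 16 of 16 calls between 2 and 30 months were made again.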
